A study of Mus musculus with 16 samples.

Results

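The nuclei described here are excitatory neurons of the mouse hippocampal dissection that carried the transcript of Ccn2, the gene of a secreted matricellular protein that marks the deepest neurons of the cortex. A nucleus was taken when it had at least 1 unique molecular identifier (UMI, 1 counted RNA molecule) of Ccn2 and at least 2 UMIs over Rai14, Cobll1 and Dkk2. It also needed at least 1 UMI of the vesicular glutamate transporters Slc17a7 and Slc17a6, and at most 1 UMI each of Gad1 plus Gad2 (inhibitory neurons), Prox1 (dentate granule neurons) and Vwc2l (near-projecting neurons). Of 147873 barcodes with 500 or more UMIs, 300 or more genes and at most 5% mitochondrial UMIs, 310 met this rule, and they are called layer 6b-like nuclei. The remaining 46289 nuclei that passed the same transmitter and exclusion limits served as the other excitatory nuclei. Among these, 2145 nuclei with 2 or more Foxp2 UMIs and no Ccn2 are called Foxp2 deep-layer nuclei, and 14208 with CA1 markers are called CA1-marker nuclei.

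Nuclear RNA was taken from the hippocampus of 16 female mice aged 9 months, 1 library per mouse, with 4 libraries in each of 4 groups. The mice were wild type (Ch25h+/+) or knockout (Ch25h-/-) for Ch25h, and within each genotype carried tau (Tau+) or did not (Tau-). Ch25h encodes cholesterol 25-hydroxylase, which makes 25-hydroxycholesterol. The title of the study places CH25H between STING and interferon signalling and tau pathology. The labels name neither the tau line, nor its promoter, nor the part of Ch25h that was removed.

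Layer 6b is the thin band of neurons between the cortex and the white matter, and in rodents it holds the survivors of the subplate, the earliest-born neurons of the cortex. Its neurons are known for Ccn2 (older name Ctgf), Cplx3, Nxph4, Moxd1, Nr4a2 and the orexin receptor Hcrtr2, and for responding to neuromodulators of the arousal systems. Such neurons also lie in the deep layers of the subiculum and the retrohippocampal cortex, which border the hippocampus. The samples are labelled hippocampus, and where in the tissue a nucleus lay was not measured.

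The 16 libraries held 51270831 to 84870650 UMIs over all barcodes and 8130 to 11654 nuclei each. The layer 6b-like nuclei numbered 5 to 37 per library and held 64589 to 452296 UMIs per library, 3326772 in all. Their median depth was 9750 UMIs per nucleus (range 1713 to 30905), against 7771 in the other excitatory nuclei, 8301 in Foxp2 deep-layer nuclei and 10260 in CA1-marker nuclei. No barcode was shared by layer 6b-like nuclei of different libraries, and 17 of their barcodes were also nucleus barcodes in another library. In the other excitatory nuclei, the first principal component (28.6% of the variance) separated replicates 1 and 2 of every group from replicates 3 and 4, and this split of libraries is given beside the results it touches. Levels are counts scaled to each library's total (counts per 1000000 UMIs, CPM). Over all nuclei, Ch25h was read at 0.452 ± 0.202 CPM (SD, n = 4) with tau and 0.208 ± 0.0286 without it among the Ch25h+/+ libraries, and at 0.448 ± 0.118 and 0.368 ± 0.104 among those labelled Ch25h-/-. The Ch25h reads were thus not lower in the libraries labelled Ch25h-/-, and whether the 3' tags lie outside the removed part is not given. The lncRNA Gm26902 was at 0.591 to 1.003 CPM in the 8 Ch25h+/+ libraries and at 0.182 to 0.418 CPM in the 8 labelled Ch25h-/-, with no overlap. Neither gene had a UMI in the layer 6b-like nuclei, so the genotype could not be read in them, and it is used as labelled throughout.

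The genes of the rule describe how the nuclei were chosen and support nothing by themselves. The 310 nuclei held 717 Ccn2 UMIs: 162 nuclei had exactly 1, 60 had 2, and 88 had 3 or more, with up to 15 in a nucleus. Rai14, which encodes an actin-bundling ankyrin-repeat protein, was read in 289 of them (93.2%) with 1240 UMIs, and Cobll1, a relative of the actin nucleator gene Cobl, in 228 (73.5%) with 1008 UMIs. Dkk2, a secreted Wnt antagonist, gave 5 UMIs in 4 nuclei (1.29%). At a mean of 1.20 ± 2.22 CPM (SD, n = 16 libraries), Dkk2 was lower in these nuclei than in the other excitatory nuclei (4.28 ± 2.02 CPM) and in the Foxp2 deep-layer nuclei (19.7 CPM), so the listed marker Dkk2 was not a marker of the nuclei found. Slc17a7 was read in 309 nuclei and Slc17a6 in 12, Gad1 in 5, Gad2 in 1, Prox1 in 2 and Vwc2l in 35, each within the limits of the rule. Ccn2 itself was at 200 ± 70.7 CPM in the layer 6b-like nuclei and 0.548 CPM in the other excitatory nuclei, a difference that the rule made.

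Ccn2 was read in 1310 of the 147873 nuclei, of which the layer 6b-like nuclei were 23.7%. Outside them, and among the classes counted here, the share of nuclei with a Ccn2 UMI was highest in cells of the meninges and vessels. Of 1315 fibroblast-marker nuclei 12.3% had a Ccn2 UMI, at a median depth of 2221 UMIs. So did 5.88% of 527 endothelial-marker nuclei and 3.06% of 556 mural-marker nuclei. Choroid plexus and ependymal nuclei were not among the classes counted. Cell types of the parenchyma gave 0.582% of 11345 inhibitory nuclei (median 8376 UMIs), 0.350% of 13710 granule nuclei (median 6975.5 UMIs), 0.558% of 4484 astrocyte nuclei, 0.234% of 18832 oligodendrocyte nuclei and 0.200% of 5487 microglial nuclei. Inhibitory and granule nuclei are neurons at a depth near that of the layer 6b-like nuclei, and their shares serve as the level against which a Ccn2 UMI is read. Whether free RNA, doublets or low expression gave their Ccn2 UMIs was not tested.

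The label was set beside 9 known layer 6b genes that the rule did not use: Cplx3 (a complexin of the release machinery), Nxph4 (a neurexophilin, a secreted neurexin ligand), Moxd1 (a monooxygenase-like protein), Hcrtr2, Tmem163 (a zinc transporter), Lpar1 (a lysophosphatidic acid receptor), Drd1 (a dopamine receptor), Nr4a2 (an orphan nuclear receptor) and Svil (supervillin, an actin-binding protein). The gene lists were chosen with earlier results of these data known, so the 9 genes are not an independent check. Tmem163, Svil and Moxd1 are also among the 25 genes with the highest ratio described below. Each nucleus was thinned to 4000 UMIs, which left 299 of the 310 layer 6b-like nuclei, all 1944 Foxp2 deep-layer nuclei of that depth, and up to 300 nuclei per library (4800 in all) of each of the other populations. Of the layer 6b-like nuclei 90.6% had at least 1 of the 9 genes, against 27.5% of the other excitatory, 52.8% of the Foxp2 deep-layer and 28.7% of the CA1-marker nuclei. At least 2 of the 9 genes were read in 73.2%, 4.48%, 15.998% and 4.13% of them, in the same order, and at least 3 in 41.1%, 0.625%, 1.95% and 0.438%. At this depth the label thus rested on 2 or more of these genes in 73.2% of the nuclei and on 3 or more in 41.1%, while 28 thinned layer 6b-like nuclei (9.36%) had none of the 9 genes. Without thinning, 229 of 310 nuclei (73.9%) had 3 or more and 10 had none, and the share with 3 or more was 51.4% to 100% over the 16 libraries.

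**Figure D1:**
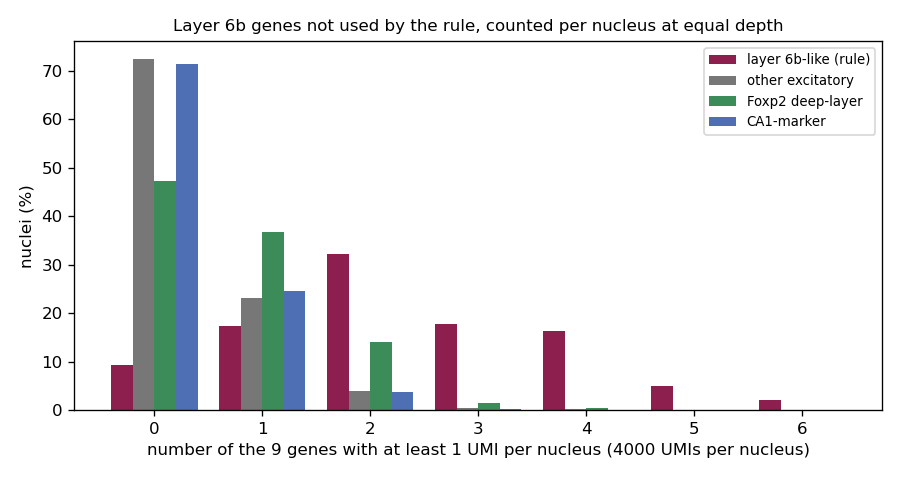
Share of nuclei (vertical axis, percent) by the number of the 9 layer 6b genes with at least 1 UMI (horizontal axis) after thinning to 4000 UMIs, for 299 layer 6b-like, 4800 other excitatory, 1944 Foxp2 deep-layer and 4800 CA1-marker nuclei. The layer 6b-like nuclei peak at 2 genes (32.1%) and reach 6, while the other excitatory nuclei peak at 0 (72.5%).

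Nuclei just inside and just outside the rule were set side by side, with no test. Of 162 nuclei with exactly 1 Ccn2 UMI, 61.7% had 3 or more of the 9 genes unthinned, against 87.2% of the 148 with 2 or more Ccn2 UMIs. Of 3843 excitatory nuclei that met the rule except for having no Ccn2 UMI, 6.82% did. Of 43 nuclei with exactly 2 UMIs over Rai14, Cobll1 and Dkk2, 58.1% did, against 36% of the 50 Ccn2 nuclei that had only 1 such UMI and 10.5% of the 114 that had none. Nuclei near either limit also differed in depth. The 43 had a median of 6707 UMIs and the 267 with 3 or more had 10248. The 50 and the 114 had medians of 6097 and 7145 UMIs. With 1 Ccn2 UMI the median was 8908.5 UMIs, and with 2 or more it was 10687.5. These nuclei were not thinned, so a mixed set and a loss of reads at lower depth cannot be told apart here.

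The layer 6b genes were then compared by level, as the mean CPM of the 16 libraries. Tmem163 was at 391 ± 74.0 CPM in the layer 6b-like nuclei (SD, n = 16) and at 28.2 ± 4.57 CPM in the other excitatory nuclei. By library, Tmem163 was at 454.2, 318.9, 422.7 and 613.8 CPM in Ch25h+/+ Tau-, 323.1, 393.5, 428.0 and 363.9 in Ch25h+/+ Tau+, 376.2, 393.9, 346.0 and 312.5 in Ch25h-/- Tau-, and 415.0, 352.0, 416.2 and 325.1 in Ch25h-/- Tau+. All 16 values were above the highest library of the other excitatory nuclei (35.7 CPM), and the 4 groups overlapped.

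Moxd1 was at 68.1, 83.6, 45.3 and 131.0 CPM in Ch25h+/+ Tau-, 95.7, 145.9, 122.3 and 102.3 in Ch25h+/+ Tau+, 77.5, 30.3, 87.6 and 145.1 in Ch25h-/- Tau-, and 106.2, 206.5, 212.9 and 31.0 in Ch25h-/- Tau+. Its mean of 106 ± 54.0 CPM stood against 2.58 in the other excitatory and 1.80 in the Foxp2 deep-layer nuclei, and its values were closer together in Ch25h+/+ Tau+ (SD 22.6 CPM) than in the other groups (SD 36.2 to 87.1 CPM). Svil was at 199 ± 78.1 CPM against 9.25 in the other excitatory and 27.2 in the Foxp2 deep-layer nuclei, and at 55.8 to 348 CPM over the libraries. Drd1 was at 29.9 ± 16.4 CPM against 1.11. Cplx3 was at 24.9 ± 15.7 CPM against 0.345, and Nxph4 at 15.1 ± 7.58 CPM against 0.183. Nxph4 rested on 50 UMIs in 43 nuclei and was not read in 1 library, so its values per library are coarse. Cplx3 rested on 88 UMIs in 66 nuclei (21.3%), while 1.17% of inhibitory and 0.357% of granule nuclei had a Cplx3 UMI.

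Genes of the panel were also read in other nuclei. Svil had a UMI in 64.7% of the fibroblast-marker nuclei (543 CPM) and 45.1% of the mural-marker nuclei, and Moxd1 in 16.2% of the inhibitory nuclei (33.6 CPM). Nr4a2 was at 163 ± 49.8 CPM against 51.5 in the other excitatory and 105 in the Foxp2 deep-layer nuclei. Lpar1 was at 78.7 ± 39.6 CPM against 10.3 and 56.4, and it was also read in 28.0% of the oligodendrocyte and 59.7% of the fibroblast-marker nuclei. Hcrtr2, the receptor for orexin A and B, was at 85.6 ± 45.7 CPM against 8.59 and 20.2, and 15.5% of inhibitory nuclei had an Hcrtr2 UMI. Of 13 layer 6b and subplate genes at 1 CPM or more, 11 were higher in the layer 6b-like than in the other excitatory nuclei in all 16 libraries. Over all 16629 genes at that level, 484 (2.91%) were. No gene of the rule is in this list. The list's median ratio was 13.9, against 0.942 over all genes. It includes Inpp4b, a phosphoinositide phosphatase, at 1152 against 167 CPM, and Pappa2, a protease of insulin-like growth factor binding proteins, at 128 ± 72.6 against 5.37 CPM. Nnat, a subplate gene in development, was at 130 against 175 CPM and higher in 4 of 16 libraries, and Trh was not read in these nuclei.

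**Figure D2:**
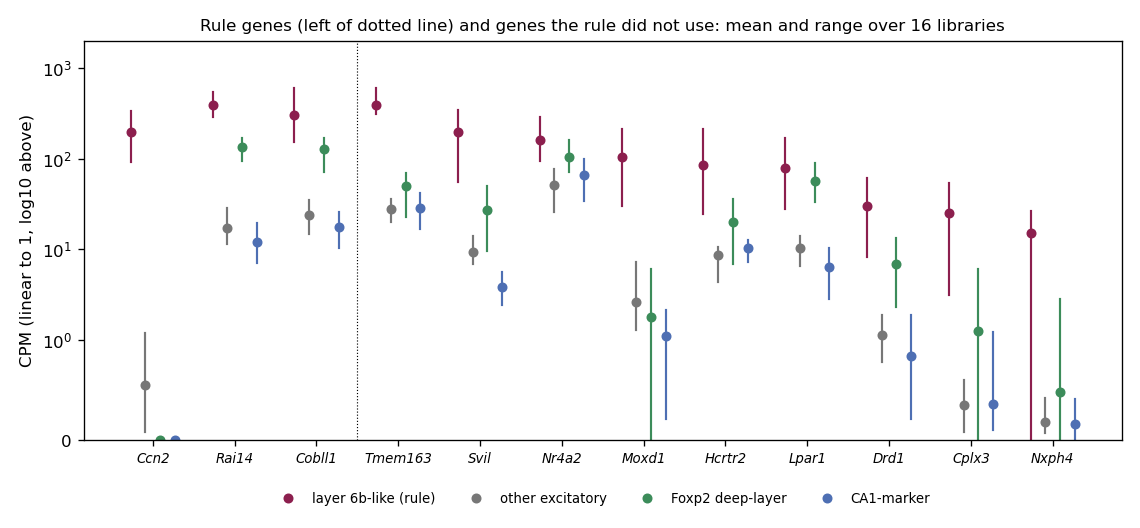
Mean CPM over 16 libraries (points) with the lowest and highest library (lines) for the genes of the rule, left of the dotted line, and for layer 6b genes that the rule did not use, in 4 populations of nuclei. The vertical axis is linear to 1 CPM and logarithmic above. Tmem163 lies at 313 to 614 CPM in layer 6b-like nuclei and below 35.8 CPM in the other excitatory nuclei.

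Transcription factors of the deep cortical layers were read beside these genes. Tle4, a corepressor of corticothalamic neurons, was at 769 ± 99.4 CPM in the layer 6b-like nuclei, 125 in the other excitatory and 360 in the Foxp2 deep-layer nuclei. Zfpm2 was at 927 ± 230 against 458 CPM. Tle4 and Zfpm2 were higher in all 16 libraries. Tbr1, the layer 6 and subplate factor, was at 26.8 ± 14.7 against 7.54 CPM and higher in 14 libraries. Cux2 and Rorb, factors of the upper and middle layers, were at 4.17 against 33.8 CPM and 18.7 against 39.2 CPM. Sox5 was at 343 against 365 CPM and higher in 8 libraries.

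Of 7 genes of layer 6 corticothalamic neurons, 2 were higher than in the other excitatory nuclei in all 16 libraries (Tle4 and Hs3st4) and 1 was lower in all. Their sum over the pooled nuclei was 3875 against 1060 CPM, with 6 of the 7 higher. Hs3st4, a heparan sulfate sulfotransferase, was at 2939 ± 238 CPM, against 811 in the other excitatory and 1988 in the Foxp2 deep-layer nuclei. Syt6 and Rprm, which mark corticothalamic neurons, were at 4.99 and 3.44 CPM, against 3.19 and 3.37 CPM in the other excitatory and 17.3 and 18.5 CPM in the Foxp2 deep-layer nuclei. Crym was at 29.9 against 84.5 CPM in the other excitatory nuclei, and lower in all 16 libraries.

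The 25 genes with the highest ratio to the other excitatory nuclei, among genes at 30 CPM or more, were chosen by that ratio and are given as a description. After Ccn2, they were led by Tmem40 (43.2 against 0.314 CPM), Lypd6b (94.9 against 2.17), which encodes a modulator of nicotinic acetylcholine receptors, and Moxd1. All but Lypd6 were higher in all 16 libraries, and Lypd6 in 15. Collagen and matrix genes made up 3 of them: Col24a1 (70.9 ± 41.2 against 1.96 CPM), Col19a1 (264 ± 92.3 against 16.5) and Col8a1 (127 ± 57.1 against 8.80). Receptor genes among them were Glra2, a glycine receptor subunit (110 ± 42.1 against 6.47 CPM), and Pth2r, a parathyroid hormone receptor (36.3 ± 28.7 against 1.85 CPM). Myocd, which encodes the SRF coactivator myocardin, was at 51.6 ± 26.1 against 2.19 CPM. In the Foxp2 deep-layer nuclei Glra2 was at 37.9, Col8a1 at 38.0 and Myocd at 13.8 CPM. There Col24a1 was at 4.83, Col19a1 at 21.6 and Pth2r at 6.48 CPM.

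Several of the 25 genes lie next to one another in the genome (GRCm38, GENCODE M21). Moxd1 (chromosome 10, 24223517 to 24302790) and Ccn2 (chromosome 10, 24595442 to 24598683) lie on the same strand 292.7 kb apart. The transcript gene Gm15270 (24549441 to 24597108) overlaps Ccn2 on the opposite strand. It was read at 30.1 ± 11.2 CPM, and how reads of the overlap were assigned to the 2 genes was not checked. Lypd6b and Lypd6 lie 117.6 kb apart on chromosome 2 (49787688 to 50193569).

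The largest group was 6 long noncoding RNA genes in a row on chromosome 8, from 49370886 to 50916997: 4930555F03Rik, Gm45321, Gm45323, Gm45341, Gm2516 and C130073E24Rik. Of these, 4930555F03Rik was at 1057 ± 290 against 49.7 CPM, C130073E24Rik at 830 ± 315 against 36.2 CPM, and Gm45321 at 501 ± 211 against 22.2 CPM. Gm45341 and Gm2516 overlap on opposite strands, and how reads of the overlap were assigned was not checked. The run was not confined to these nuclei: in inhibitory nuclei 4930555F03Rik was at 819, C130073E24Rik at 669 and Gm45321 at 410 CPM, and in granule nuclei at 69.9, 64.8 and 33.7 CPM. In the Foxp2 deep-layer nuclei the levels were 149, 113 and 60.7 CPM, in the same order. Cdh18, which encodes a cadherin of synapses, was at 3421 ± 417 CPM in the layer 6b-like, 208 in the other excitatory and 1256 in the Foxp2 deep-layer nuclei.

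At the other end, 10 genes had the lowest ratio among genes at 100 CPM or more in the other excitatory nuclei, and none was higher in any of the 16 libraries. They include Nell1 (21.0 against 318 CPM), Kcnc2, a voltage-gated potassium channel gene (24.7 against 303 CPM), and Tafa1, a secreted neurokine gene (135 against 1815 CPM). The lowest were Gm32647 (6.82 against 341 CPM) and Pkp2, a desmosomal plakophilin gene (7.07 against 135 CPM).

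Receptors for neuromodulators differed in level in both directions. Of the 35 such genes at 1 CPM or more, 9 were higher in the layer 6b-like nuclei in all 16 libraries and 5 were lower in all, against 2.91% and 6.39% of all 16629 genes. Oprm1, the mu opioid receptor, was at 635.8, 811.2, 535.9 and 630.2 CPM in Ch25h+/+ Tau-, 628.2, 731.8, 592.3 and 553.4 in Ch25h+/+ Tau+, 708.2, 818.1, 542.0 and 513.5 in Ch25h-/- Tau-, and 615.1, 708.6, 667.8 and 820.6 in Ch25h-/- Tau+. The 4 groups overlapped, and every value was above the highest library of the other excitatory nuclei (128 CPM). Oprm1 was read in 95.2% of the layer 6b-like nuclei, and its mean of 657 ± 102 CPM stood against 75.6 in the other excitatory and 264 in the Foxp2 deep-layer nuclei.

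Serotonin receptors went in both directions. Htr1f was at 472 ± 133 against 148 CPM and Htr2a at 94.5 ± 51.4 against 13.7 CPM. Htr4, which couples to cyclic AMP, was at 19.0 ± 60.7 against 141 CPM, with 1 library at 246 CPM and a median of 1.55. Among the other receptors higher in all libraries, the muscarinic receptor Chrm2 was at 87.7 against 18.4 CPM and the histamine receptors Hrh1 and Hrh3 were at 54.1 against 6.55 and 24.3 against 6.51 CPM. Ntsr1, the neurotensin receptor known from layer 6, was at 16.9 against 3.28 CPM. Lower in all 16 libraries were the cannabinoid receptor Cnr1 (10.3 against 57.1 CPM), Crhr1 (1.99 against 18.4), Adra1a (2.74 against 17.2) and Npy1r (4.11 against 16.2). The muscarinic receptor Chrm3 was at 793 against 872 CPM and higher in 8 libraries.

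Glutamate receptor genes were mostly lower. Of 23, 2 were higher and 12 lower in all 16 libraries, with a median ratio of 0.683. The kainate receptor Grik3 was at 318 ± 82.7 against 51.8 CPM and the metabotropic receptor Grm3 at 464 ± 69.3 against 146 CPM. Both were near their levels in the Foxp2 deep-layer nuclei (306 and 498 CPM). Grin2a, an NMDA receptor subunit, was at 630 ± 205 against 2586 CPM, the AMPA receptor subunit Gria1 at 901 ± 342 against 2208 CPM, and Grik2 at 469 ± 145 against 1218 CPM.

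Ccn2 is a classic target of the YAP and TEAD transcription factors, and 12 of the 16 genes listed around them were at 1 CPM or more. Yap1 was at 44.9 ± 19.0 against 9.21 CPM and higher in all 16 libraries, as was Ccn2 by the rule. Its relatives Ccn1 (26.5 ± 25.1 against 1.95 CPM) and Ccn4 (13.5 ± 12.1 against 0.712 CPM) were higher in 14 libraries each. Wwtr1, which encodes the YAP paralogue TAZ, was at 26.2 ± 21.3 against 6.89 CPM and higher in 12 libraries. Tead1, which encodes the DNA-binding partner, was at 34.8 ± 16.4 against 135 CPM and lower in all 16. Of the 12 genes, 2 were higher in all 16 libraries, with Ccn2 among them, and 2 were lower in all. Over all 16629 genes these shares were 2.91% and 6.39%. The list's median ratio was 1.49. Of the Wnt list, to which Dkk2 belongs, none of the 16 genes at 1 CPM or more was higher in all 16 libraries, and Dkk3 was at 69.5 ± 36.6 against 150 CPM.

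Genes of sterol metabolism bear on the study's question, since 25-hydroxycholesterol lowers SREBP2 activity and oxysterols activate LXR. The 20 SREBP2 target genes had ratios of 1.14 to 2.56 with a median of 1.76, against 0.942 over all genes. Sqle, the squalene epoxidase, was at 42.4 ± 18.6 against 16.6 CPM and was the only one higher in all 16 libraries. The 10 LXR targets had a median ratio of 0.643, with the cholesterol exporter Abca1 at 1.998 against 17.0 CPM. Interferon-stimulated genes had a median ratio of 0.767, immediate early genes 1.19 and tau kinases 0.990. Among tau kinases, Mark1 was at 133 ± 31.5 against 73.5 CPM and higher in all 16 libraries, and Camk2a at 366 ± 58.1 against 1046 CPM and lower in all. Mapt, the tau gene, was at 343 ± 40.1 against 381 CPM, and Unc5c, a netrin receptor gene, at 254 ± 119 against 736 CPM.

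Markers of other cell types were counted in the same nuclei. The summed markers, over the pooled nuclei, were below the other excitatory nuclei for CA3 neurons (241 against 502 CPM), granule neurons (74.8 against 317), inhibitory neurons (30.7 against 84.9), astrocytes (42.7 against 62.2), oligodendrocytes (108 against 326) and microglia (99.2 against 125). The sum for subiculum and near-projecting neurons, a list that holds Vwc2l and Slc17a6 of the rule, was 187 against 500.1 CPM. By library it was at 65.5 to 166 CPM in Ch25h+/+ Tau-, 53.5 to 519 in Ch25h+/+ Tau+, 33.5 to 267 in Ch25h-/- Tau- and 46.4 to 290.4 in Ch25h-/- Tau+. Most of the pooled sum was Tshz2, at 152 against 261 CPM over the pooled nuclei. The endothelial sum was 5.41 against 5.77 CPM, the mural sum 9.92 against 8.76 CPM and the fibroblast sum 16.8 against 26.1 CPM. Of the 6 fibroblast markers 5 were higher in the layer 6b-like nuclei although their sum was lower, and the 5 at 1 CPM or more had a median ratio of 2.25. Iyd, Amigo2, Nts, Dlx6os1, Vip, Aldh1l1, Adgrl4 and Abcc9 had no UMI in any layer 6b-like nucleus. The sum for oligodendrocyte precursors was higher, 979 against 109 CPM over the pooled nuclei, and 966 of it came from Lhfpl3, which was higher in all 16 libraries. The defining precursor marker Pdgfra was at 6.61 CPM and Cspg4 at 0.902. The CA1 sum was lower, 875 against 1259 CPM: of 6 CA1 markers, 3 were lower in all 16 libraries (Fibcd1, Pex5l and Spink8), while 2 were higher in all 16, among them Mpped1 (265 against 101 CPM). The CA2 sum was higher, 97.7 against 46.1 CPM: of the 5 CA2 markers 1 was higher in all 16, Pcp4 (85.1 against 24.7 CPM), and 1 was lower in all 16.

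The layer 6b-like nuclei were not uniform, and Foxp2 divided them. This division was chosen after the values were seen, so it has no test. Foxp2, a factor of layer 6 corticothalamic neurons, was not read in 180 nuclei (58.1%, median 9475.5 UMIs), read once in 35 (median 7419 UMIs) and 2 or more times in 95 (30.6%, median 10516 UMIs). Both ends were present together in 14 libraries. The genes named below for this division, other than Ccn2 and the 9 layer 6b genes, were picked for the largest ratios between the ends. Their counts of libraries therefore describe that choice and support nothing by themselves, and the share of all genes with such counts is not given. By group, the share with 2 or more was 24.2% ± 16.3 in Ch25h+/+ Tau-, 28.7% ± 8.65 in Ch25h+/+ Tau+, 31.7% ± 26.4 in Ch25h-/- Tau- and 24.7% ± 12.8 in Ch25h-/- Tau+ (SD, n = 4 each), and the ranges overlapped.

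Some of the layer 6b genes were higher in the nuclei without Foxp2. The rule gene Ccn2 was itself at 247 CPM without Foxp2 and 166 CPM with 2 or more Foxp2 UMIs, higher without in 14 of 14 libraries. Lpar1 was higher without Foxp2 in 12 of 14 libraries, Cplx3 and Nxph4 in 10 each, and Hcrtr2 in 8. Moxd1 was at 166 CPM without Foxp2 and 16.2 CPM with 2 or more Foxp2 UMIs, higher without in 14 of 14 libraries. Tmem163 (498 against 227 CPM) was also higher without Foxp2 in 14 of 14. So were Lypd6b (125 against 19.0 CPM) and Gm45321 (728 against 153 CPM), which are not in the layer 6b list. Sdk1, a synaptic adhesion gene, was at 1130 against 72.3 CPM and Pappa2 at 212 against 32.3 CPM, each higher without Foxp2 in 13 of 14. The serotonin receptor genes Htr2a (151 against 20.9 CPM, 13 of 14 libraries) and Htr2c (244 against 38.0 CPM, 14 of 14) followed the same order, as did the adhesion gene Kirrel3 (960 against 171 CPM, 14 of 14).

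Other genes went with Foxp2 or with neither. Egfem1 was at 225 CPM without and 1178 CPM with Foxp2, the metabotropic glutamate receptor Grm8 at 79.0 and 391 CPM, each higher with Foxp2 in 13 of 14 libraries. Cntnap4, a neurexin-family gene, was at 161 and 564 CPM, higher with Foxp2 in 14 of 14, and Tshz2 at 22.1 and 303 CPM in 12 of 14. Nr4a2 (169 and 154 CPM), Svil (176 and 223 CPM) and Drd1 (33.3 and 25.7 CPM) were higher on one side in 8, 9 and 9 of 14 libraries. As a description, the nuclei with and without Foxp2 had Nr4a2, Svil and Drd1 in common. They differed in Moxd1, and in Lypd6b, Pappa2 and Sdk1, which were picked for their ratios.

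**Figure D3:**
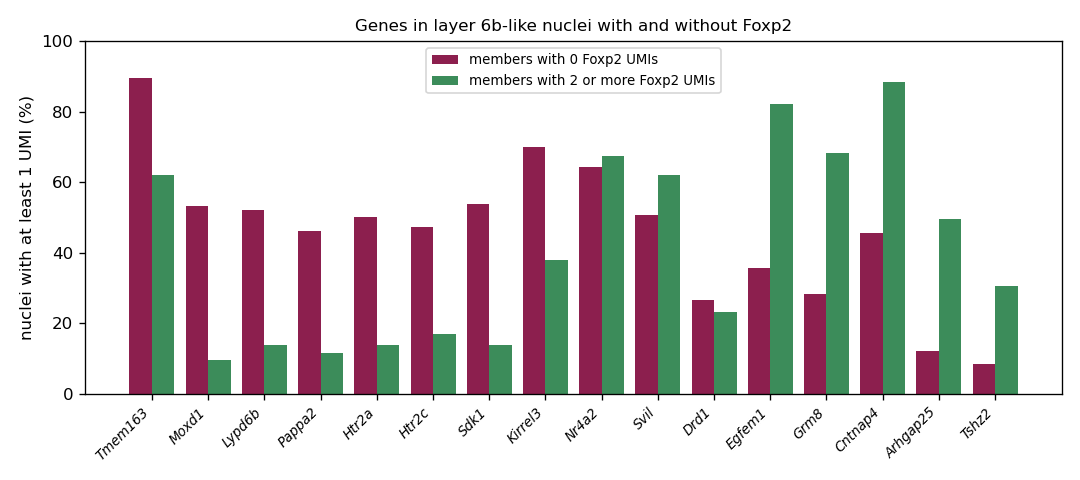
Percent of layer 6b-like nuclei with at least 1 UMI of each gene, for 180 nuclei with no Foxp2 UMI and 95 with 2 or more. Moxd1 was read in 53.3% of the first and 9.47% of the second, and Nr4a2 in 64.4% and 67.4%.

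The share of nuclei that were layer 6b-like was compared between the groups. In Ch25h+/+ Tau- it was 0.186%, 0.317%, 0.146% and 0.131% in replicates 1 to 4, and in Ch25h+/+ Tau+ it was 0.179%, 0.358%, 0.285% and 0.297%. In the libraries labelled Ch25h-/- it was 0.227%, 0.146%, 0.264% and 0.0524% for Tau-, and 0.354%, 0.185%, 0.124% and 0.0715% for Tau+. The lowest share rested on 5 nuclei and had a 95% exact (Clopper-Pearson) interval of 0.0170% to 0.122%, which covers counting error only. The groups overlapped, and replicate 4 was the lowest in 3 of the 4 groups, all but Ch25h+/+ Tau+.

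The mean share was 0.195% ± 0.0849 in Ch25h+/+ Tau-, 0.280% ± 0.0745 in Ch25h+/+ Tau+, 0.172% ± 0.0940 in Ch25h-/- Tau- and 0.184% ± 0.123 in Ch25h-/- Tau+ (SD, n = 4 each). With tau, the share differed by 0.0847 percentage points in Ch25h+/+ (two-sided exact permutation test, p = 0.2, adjusted over 6 effects 0.483) and by 0.0113 in Ch25h-/- (exact p = 0.914, adjusted 0.914). With the loss of Ch25h it differed by -0.0963 points in Tau+ (exact p = 0.286, adjusted 0.483) and by -0.0228 in Tau- (exact p = 0.714, adjusted 0.857). Over both genotypes the tau difference was 0.0480 points (exact p = 0.322), and over both tau states the Ch25h difference was -0.0595 (exact p = 0.224, each adjusted 0.483). Within a genotype or tau state the smallest p these tests allow is 0.0286. None of the 6 differences passed the test. The tau difference in Ch25h+/+ and the Ch25h difference in Tau+ each lay between the SDs of the groups compared.

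The split of libraries touched these differences. Within replicates 1 and 2, the tau difference was 0.0168 percentage points in Ch25h+/+ and 0.0831 in Ch25h-/-, and within replicates 3 and 4 it was 0.153 and -0.0605. The difference with the loss of Ch25h was 0.000735 in Tau+ and -0.0655 in Tau- within replicates 1 and 2, and -0.193 and 0.0199 within replicates 3 and 4. The tau difference in Ch25h-/- and both Ch25h differences thus had opposite signs on the sides of the split, and with 2 libraries against 2 the smallest exact p is 0.333.

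**Figure D4:**
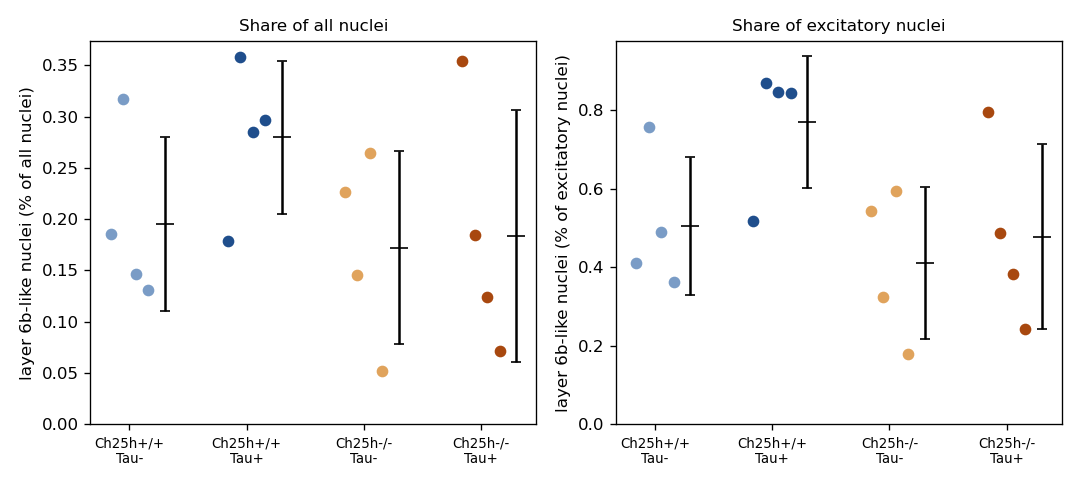
Layer 6b-like nuclei as a percent of all nuclei and of excitatory nuclei (vertical axes) in each of 16 libraries (points), with the mean and SD of each group of 4. Excitatory nuclei are here those within the limits on Slc17a7 plus Slc17a6, Gad1 plus Gad2 and Prox1, with no limit on Vwc2l. The 4 groups overlap on both scales, with means of 0.172% to 0.280% of all nuclei and 0.411% to 0.770% of excitatory nuclei.

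Gene levels were then compared between the groups in the summed counts of the layer 6b-like nuclei, with edgeR's quasi-likelihood test over the 4354 genes with enough counts. The libraries of Ch25h-/- Tau+ replicate 4 (6 nuclei) and Ch25h-/- Tau- replicate 4 (5 nuclei) had fewer than 10 such nuclei and were left out of this fit. At an adjusted p under 0.05 (Benjamini-Hochberg), tau changed 1 gene in Ch25h+/+ (0.023% of those tested) and 1 in Ch25h-/- (0.023%), the same gene, Gm43049. The loss of Ch25h changed 0 genes in Tau+ (0%; 124 at an unadjusted p under 0.05, DESeq2 0) and 0 in Tau- (0%; 195 at an unadjusted p under 0.05, DESeq2 0). The tau effect differed between genotypes for 1 gene (0.023%), Ptgds.

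Gm43049, a long noncoding RNA gene on chromosome 3 (140692038 to 140760704), had no UMI in the layer 6b-like nuclei of any of the 8 Tau- libraries. In Ch25h+/+ Tau+ it was at 101.7, 97.3, 84.1 and 155.4 CPM (17, 44, 22 and 41 UMIs), and in Ch25h-/- Tau+ at 123.5, 117.3, 58.1 and 123.9 CPM (50, 25, 6 and 8 UMIs). Every Tau+ library was thus above every Tau- library. Against a floor of 3 counts over the Tau- group, the pooled level was at least 27.2-fold higher in Ch25h+/+ (edgeR adjusted p = 3.03e-06) and at least 24.2-fold higher in Ch25h-/- (edgeR adjusted p = 5.43e-05). By the split of libraries, the call held with a block for it and within replicates 1 and 2 in both genotypes. Within replicates 3 and 4 it held in Ch25h+/+ (edgeR adjusted p = 0.00686) and was lost in Ch25h-/- (adjusted p = 0.481), where each group had 1 library in the fit. The other excitatory nuclei of the same Tau+ libraries had 93.6 ± 8.38 and 92.0 ± 3.13 CPM, and the layer 6b-like nuclei were above them in 2 of 4 and 3 of 4 libraries. The neighbouring genes Gm32754 and 4930590L14Rik had too few counts to be tested: 15 and 9 UMIs of Gm32754 and 5 and 2 of 4930590L14Rik in the Tau+ groups of Ch25h+/+ and Ch25h-/-, and none in Tau-.

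Prnp, the prion protein gene, was at 62.4, 58.8, 75.5 and 73.7 CPM in Ch25h+/+ Tau- and at 137.6, 88.4, 107.0 and 155.4 in Ch25h+/+ Tau+. In Ch25h-/- it was at 60.9, 37.9, 25.02 and 78.1 CPM without tau and at 121.0, 93.9, 135.5 and 92.9 with tau. The groups did not overlap in either genotype, and the share of all tested genes without overlap is not given here. The log2 fold changes of Prnp were 0.84 (SE 0.28, edgeR adjusted p = 0.998) and 1.53 (SE 0.36, adjusted p = 0.432), so neither passed the test over all genes. The fit left out replicate 4 of both Ch25h-/- groups, at 78.1 CPM without tau and 92.9 with tau. Over all 4 libraries of each, the means were 50.5 ± 23.7 CPM without tau and 111 ± 21.0 with tau. In the other excitatory nuclei the Prnp values were 0.60 and 0.73 (edgeR adjusted p = 0.292 and 0.421), and the difference from the layer 6b-like nuclei did not pass either (limma adjusted p = 0.995 and 0.7998).

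Mapt was at 312 to 417 CPM in Ch25h+/+ Tau-, 335 to 360 in Ch25h+/+ Tau+, 257 to 354 in Ch25h-/- Tau- and 348 to 366 in Ch25h-/- Tau+. Its log2 fold changes with tau were -0.07 (SE 0.16) and 0.21 (SE 0.19), with edgeR adjusted p of 0.998 and 0.991. Reads of a tau transgene that do not align to mouse Mapt would not be in these counts. Unc5c, which lies on the same chromosome as Gm43049, was at 139 to 556 CPM in Ch25h+/+ Tau- and 72.6 to 233 in Ch25h+/+ Tau+, with a log2 fold change of -0.87 (SE 0.40, edgeR adjusted p = 0.998).

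**Figure D5:**
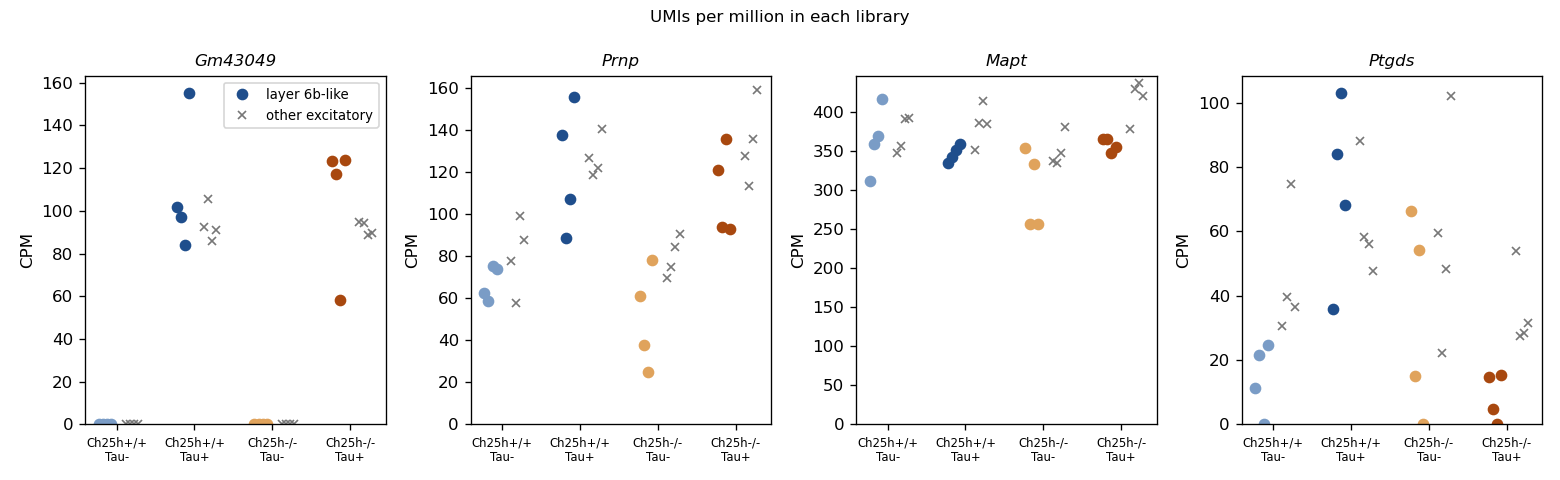
CPM of each gene in each of the 16 libraries, by group, in the layer 6b-like nuclei and in the other excitatory nuclei of the same library. Gm43049 is at 0 in the 8 Tau- libraries of the layer 6b-like nuclei and at 58.1 to 155.4 CPM in the 8 Tau+ libraries.

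Ptgds encodes the prostaglandin D2 synthase, known from meningeal fibroblasts and oligodendrocytes. In the layer 6b-like nuclei it was at 11.4, 21.7, 0 and 24.6 CPM in Ch25h+/+ Tau- and at 35.9, 84.0, 103.2 and 68.2 in Ch25h+/+ Tau+, with no overlap. In Ch25h-/- it was at 66.4, 15.1, 54.2 and 0 CPM without tau and at 14.8, 4.69, 0 and 15.5 with tau, with overlap. The log2 fold change with tau was 2.23 (SE 0.50, edgeR adjusted p = 0.280) in Ch25h+/+ and -2.26 (SE 0.68, adjusted p = 0.580) in Ch25h-/-, neither past the test. The difference between them was -4.49 (SE 0.85, edgeR adjusted p = 0.0499), at the threshold, and the call was lost under 8 of 10 other settings that changed the fit. Among these were a block for the split of libraries (-4.43, edgeR adjusted p = 0.0918), the fit within replicates 1 and 2 (-3.80, adjusted p = 0.998) and that within replicates 3 and 4 (-9.09, adjusted p = 0.174). It was also lost in 11 of 14 fits that left out a library, all but those without Ch25h+/+ Tau+ replicate 1, Ch25h+/+ Tau- replicate 4 or Ch25h-/- Tau- replicate 2.

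Of the 136 Ptgds UMIs in the layer 6b-like nuclei, 67 lay in 5 nuclei with 10 or more each. Of these 5 nuclei, 4 were in Ch25h+/+ Tau+ (11 and 14 UMIs in replicate 2, 21 in replicate 3, 10 in replicate 4) and 1 in Ch25h-/- Tau- replicate 3 (11 UMIs). The same 5 nuclei held 31 of the 56 UMIs of fibroblast markers. Without them the pooled Ptgds level was 29.7 CPM in place of 77.7 in Ch25h+/+ Tau+ and 25.1 in place of 42.0 in Ch25h-/- Tau-, beside 15.9 in Ch25h+/+ Tau- and 10.2 in Ch25h-/- Tau+. The fibroblast markers summed to 0 CPM in every Ch25h+/+ Tau- library, and to between 0 and 38.2 CPM in Ch25h+/+ Tau+, 0 and 50.03 CPM in Ch25h-/- Tau- and 0 and 42.2 CPM in Ch25h-/- Tau+. The mean Ptgds level in Ch25h-/- Tau+ was 8.75 ± 7.64 CPM (SD, n = 4). The part of these nuclei in the called difference was not tested beyond these values.

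The lists of genes were read in the same fit. Of the 14 layer 6b and subplate genes, 10 had enough counts, and none was called in any of the 5 contrasts. With tau in Ch25h+/+, 7 of the 10 had a log2 fold change above 0 and the list's median was 0.29, beside a median near 0 (-0.000936) over all genes. With tau in Ch25h-/- it was 0.22, also with 7 of 10 above 0, and 4 of the 10 were at an unadjusted p under 0.05, beside 206 of all 4354 genes. These 4 were Moxd1 (log2 fold change 1.28, SE 0.36, edgeR adjusted p = 0.580), Pappa2 (1.54, SE 0.55, adjusted p = 0.982), Nr4a2 (-0.73) and Inpp4b (0.93), and none passed the test over all genes. The fit left out replicate 4 of both Ch25h-/- groups, where Moxd1 was at 145.1 CPM without tau and 31.0 with tau. Over all 4 libraries, Pappa2 was at 91.9 ± 104 CPM (15.1 to 246) without tau in Ch25h-/-. With tau it was at 138 ± 25.5 CPM (116 to 170), with overlap. With the loss of Ch25h the list's median was -0.03 in Tau+ (5 of 10 above 0) and -0.22 in Tau- (3 of 10 above 0). Hcrtr2 had a log2 fold change of -0.95 with tau in Ch25h+/+ (SE 0.38, edgeR adjusted p = 0.998). Its values were 73.7 to 216 CPM in Tau- and 24.3 to 114 in Tau+, with overlap.

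Of 20 SREBP2 targets 5 could be tested and none was called. All 5 had a log2 fold change below 0 with tau in Ch25h+/+, with a median of -0.45, and Cyp51, the lanosterol demethylase, was at -0.94 (SE 0.36, edgeR adjusted p = 0.998). With tau in Ch25h-/- 4 of the 5 were below 0, with a median of -0.18. With the loss of Ch25h, 4 of the 5 were above 0 in Tau+ (median 0.28) and 2 of the 5 in Tau- (median -0.13). These contrasts share libraries. Of 23 glutamate receptors 18 were tested and none was called, with Grin2a at -0.70 (SE 0.24, edgeR adjusted p = 0.998) with tau in Ch25h+/+. Grin2a was at 551 to 1023 CPM in Ch25h+/+ Tau- and 367 to 595 in Ch25h+/+ Tau+, with overlap. None was called of 9 tested of 36 neuromodulator receptors, 11 of 17 tau kinases, 5 of 18 immediate early genes, 4 of 22 Wnt genes, 1 of 16 CCN and YAP genes (Yap1, with Ccn2 left out as a gene of the rule), 2 of 10 LXR targets and 1 of 27 interferon-stimulated genes. The 5 immediate early genes were all below 0 with tau in Ch25h-/- (median -0.39) and with the loss of Ch25h in Tau+ (median -0.41). With tau in Ch25h+/+ 2 of the 5 were above 0 (median -0.35), as were 2 with the loss of Ch25h in Tau- (median -0.05). Most interferon and LXR genes were too low in these nuclei to be tested, so a change in them was not detectable at this depth.

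Whether the effects differed from those in the other excitatory nuclei of the same libraries was tested with limma. Gm43049 was the only gene called in the 2 tau contrasts. Both this call and the size of the difference depend on the prior count. The layer 6b-like nuclei of all Tau- libraries were at 0, and their sums held far fewer UMIs than those of the other excitatory nuclei. The call thus cannot tell whether the tau effect differed between the populations. With tau, the layer 6b-like nuclei were at 110 ± 31.4 CPM in Ch25h+/+ and 106 ± 31.9 in Ch25h-/-. The other excitatory nuclei were at 93.6 ± 8.38 and 92.0 ± 3.13 CPM. The other excitatory nuclei of Tau- were at a mean of 0.0524 CPM in Ch25h+/+ and 0.0630 CPM in Ch25h-/-. No gene was called for the loss of Ch25h in Tau+ (156 at an unadjusted p under 0.05), in Tau- (219) or for the interaction (189). For Ptgds, the other excitatory nuclei were at 45.4 ± 19.9 CPM without and 62.6 ± 17.6 with tau in Ch25h+/+, and at 58.1 ± 33.3 and 35.5 ± 12.5 CPM in Ch25h-/- (SD, n = 4 each), with overlap in both genotypes. The log2 fold changes of Ptgds there were 0.41 and -0.22 and their difference -0.63 (SE 0.55, edgeR adjusted p = 0.99998), the same signs as in the layer 6b-like nuclei, and the difference between the populations did not pass (limma adjusted p = 0.974 for the interaction).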

How the data were processed

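Nuclear RNA of 16 hippocampus libraries was measured; per the labels' protocols, they were built with a 10x Genomics 3' kit. The samples carry separate names and were taken as 1 library per mouse. The authors deposited raw UMI counts per gene and barcode for all barcodes, which are the counts used here. The submitters' processing notes list mm10, Seurat and Cell Ranger 3.1.0, while the file headers name Cell Ranger 4. Whether intronic reads were counted is not given in the sources used here. Of 32285 gene identifiers, 32235 were matched to GENCODE M21 (GRCm38) for coordinates.

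The nuclei, gene lists and comparisons were chosen with earlier results of these data known. Groups come from the genotype labels, and replicate numbers follow sample order and pair nothing. Over 24 pairs of libraries within groups, gene counts differed with a chi-square of 7.90 to 60.5 for each degree of freedom. No library was thus a copy of another in its group, and pairs across groups were not compared. Doublets were scored with Scrublet (scanpy 1.11.5), marking the top 0.8% per 1000 nuclei (6.51 to 9.33% of a library), and were removed only as an alternative. Counts were summed per library. Levels are CPM of those sums. Counts were tested with edgeR 4.0.16 in R 4.3.3 (TMM, filterByExpr, robust quasi-likelihood, 1 mean per group), and p-values were adjusted by Benjamini-Hochberg over 4354 genes. The fit used 14 libraries with 10 or more of the nuclei. Differences from other excitatory nuclei used limma 3.58.1 (prior count 2). Alternatives were DESeq2 1.42.0, upper-quartile scaling, no filter, each library left out, the split of libraries, and stricter rules for the nuclei. The fits were tested on simulated data. Depth of 5 to 37 nuclei per library limits precision, and intervals and floors cover counting error only.

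Genes were named as those of the rule and the layer 6b list, those called in a contrast, 8 genes around tau and Ch25h, the 25 highest and 10 lowest ratios, and in each functional list those with the highest level or smallest p. Others were named after their values were seen. No sequences are shown.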

Additional observations from a re-analysis of the deposited data

Results flagged for a closer look

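Of 60 groups of 4 libraries whose values were checked for a library far from the other 3 (Dixon's test), 2 had one, and chance marks about 1 in 20. The genes of the rule were not checked. Cplx3 was at 37.74 CPM (5 UMIs) in Ch25h+/+ Tau- replicate 3, against 3.096 to 8.185. Gm43049 was at 58.07 CPM (6 UMIs) in Ch25h-/- Tau+ replicate 3, against 117.3 to 123.9.

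The tau effect on Ptgds differed between the genotypes by -4.489 on the log2 scale, by the interaction term of the fit (edgeR adjusted p = 0.0499). The Ptgds counts rest in large part on 5 nuclei that also held fibroblast markers, whose part was not tested.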

How the results depend on the processing

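The call of Gm43049 with tau held in 11 of 12 alternatives in each genotype, and in all 14 fits that left out a library. It was lost in Ch25h+/+ with 2 or more Ccn2 UMIs required (7.45, adjusted p = 0.062), a fit of 8 libraries in which Ch25h+/+ Tau- has 1, assumed to vary like the rest, and in Ch25h-/- within replicates 3 and 4 (6.44, adjusted p = 0.481, 1 library in some groups, assumed to vary like the rest). The numbers of genes called for tau in Ch25h+/+, tau in Ch25h-/-, Ch25h loss in Tau+, Ch25h loss in Tau- and the interaction were 1, 1, 0, 0 and 1. With no filter on low counts they were 15, 5, 3, 11 and 10. Within replicates 3 and 4 they were 2 for tau in Ch25h+/+, 1 for Ch25h loss in Tau+, 2 in Tau- and 3 for the interaction. With 2 or more Ccn2 UMIs, 3 genes were called for tau in Ch25h-/-. The interaction had 0 calls with upper-quartile scaling, with a block for the split of libraries, within replicates 1 and 2, with 2 or more Ccn2 UMIs, with 3 or more UMIs over Rai14, Cobll1 and Dkk2, with doublets removed, with at most 1 UMI over a shorter list of glial and vascular markers, and with all 16 libraries. Its value for Ptgds lay between -9.09 and -3.80 (adjusted p = 1.65e-05 to 0.9999). Leaving out a library gave 1 to 3, 1 to 4, 0 to 1, 0 to 0 and 0 to 2 calls. The highest counts came without Ch25h+/+ Tau+ replicate 1 (3 for tau in Ch25h+/+, 2 for the interaction) and without Ch25h-/- Tau+ replicate 1 (4 for tau in Ch25h-/-). Ptgds was called for Ch25h loss in Tau+ without Ch25h+/+ Tau+ replicate 1, Ch25h+/+ Tau- replicate 3 or Ch25h-/- Tau- replicate 2.

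Prnp, Mapt, Unc5c and the 16 list genes followed through the alternatives were called in none of them. Calls without the filter included Pappa2 (tau in Ch25h-/-, Ch25h loss in Tau-) and Ccn1 (Ch25h loss in Tau-). That fit also left out replicate 4 of both Ch25h-/- groups. Among the Ch25h-/- Tau- libraries, Pappa2 was highest in the one left out (246 CPM). The log2 fold change with tau in Ch25h+/+ changed sign for Mapt (0.0336 within replicates 1 and 2, 0.0267 in that fit of 8 libraries with 2 or more Ccn2 UMIs), Yap1 (0.10 within replicates 1 and 2), Lrp6 (-0.10 and -0.26 in the same order as Mapt), Mark3 (-0.57 with 2 or more Ccn2 UMIs) and Stat2 (0.43 within replicates 3 and 4, 0.0502 with the stricter trio, -0.39 to 0.21 over fits that left out a library). No alternative brought a difference in share past the test. With nuclei thinned to 1500 UMIs, which left 11 of them, the differences were -0.003546 percentage points for tau in Ch25h-/-, 0.009156 for the loss of Ch25h in Tau+, 0.01307 in Tau-, -0.001587 for tau over both genotypes and 0.0111 for Ch25h loss over both. With at most 1 UMI over 38 glial and vascular markers, the tau differences were -0.00485 in Ch25h+/+, -0.004464 in Ch25h-/- and -0.00466 over both. This limit left 10 nuclei in Ch25h+/+ Tau-, 7 in Ch25h+/+ Tau+, 8 in Ch25h-/- Tau- and 7 in Ch25h-/- Tau+. The stricter trio gave -0.00614 for tau in Ch25h-/-, and 2 or more Ccn2 UMIs gave 0.0150 for Ch25h loss in Tau-. Leaving out a library gave 0.0586 to 0.126 and -0.0456 to 0.0486 for tau in Ch25h+/+ and Ch25h-/-. It gave -0.153 to -0.0589 for the loss of Ch25h in Tau+, -0.0535 to 0.0180 in Tau-, and 0.0196 to 0.0684 and -0.0880 to -0.0391 over both. The cause of these changes was not tested. With that limit of at most 1 UMI over the 38 markers, no library kept 10 nuclei and genes could not be fitted. The shorter marker list, the fit with all 16 libraries and thinning to 5000 UMIs were chosen after seeing the data. A minimum of 1000 UMIs removed none of the 310 nuclei, so it tests nothing here. No paired analysis was possible because the labels give no replicate numbers: those used here follow sample order, and the block above stands for the split of libraries.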
